A study of Mus musculus with 8 samples.

Results

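The genes described here are Yy1 and 9 genes that encode subunits of the INO80 chromatin remodelling complex: Ino80, Ruvbl1, Ruvbl2, Actr5, Actr8, Mcrs1, Nfrkb, Uchl5 and Ino80c. They were chosen by name, and they are 10 of the 46078 gene IDs in the count tables. The counts come from RNA-seq of female mouse embryonic fibroblasts (MEFs) of a 129S1/SvImJ x CAST/EiJ cross, in which each read that covers a strain difference was assigned to the 129 or the CAST allele. The strain is given as in the sample labels, while the study's methods name another 129 substrain as the source of the 129 X chromosome of these cells. The 8 samples form 4 groups of 2, and the authors pooled the 2 samples of a group before alignment. Each group is therefore 1 pool with no replicate check.

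WT cells carry an intact Xist, whose noncoding RNA spreads over the inactive X and keeps it silent. XiΔXist cells lack Xist on the inactive X, which is the 129 copy, and they are another clonal line than WT. Both hairpin pools are XiΔXist cells as well, so the deletion is shared by the hairpin treatment and its control. The pool called shSCR received a scrambled short hairpin RNA by lentivirus, and the pool called shYY1 received hairpins against Yy1, a different one in each of its samples. All hairpin cells were selected with puromycin, and their libraries were sequenced with longer reads than those of the untreated cells.

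YY1 is a zinc finger transcription factor that binds a short DNA motif with the core ATGGC and can activate or repress the gene it binds. It copurifies with INO80, a large assembly that slides and edits nucleosomes with the energy of ATP. INO80, the protein that names the complex, is its motor and scaffold. RUVBL1 and RUVBL2 form a ring of AAA+ ATPases that other complexes use too, ACTR5 and ACTR8 are actin-related proteins, INO80C is a small subunit conserved in yeast, and MCRS1, NFRKB and UCHL5, a deubiquitinase, are subunits found in animals but not in yeast.

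Promoters were searched for the YY1 motif because the partners are set beside a fall of Yy1. RefSeq promoter windows of 300 bases (GRCm38.p6) were at hand for 7 of the 10 genes, and for none of Actr5, Actr8 and Ino80c. The form AANATGGC, searched on both strands and therefore also as GCCATNTT, was in 0 of the 7 windows and in 6.05% of the 32851 promoters in the table. The shorter core ATGGC, which reads GCCAT on the other strand and was added after the longer form had no match, was found in 1 of the 7, Ino80, and in 40.5% of all promoters. The Ino80 window holds it at 3 positions just after the start of transcription, 2 of them on opposite strands and overlapping. The stretch that begins at base 2 of the transcript, chr2:119477658-119477686 on the minus strand, is shown with the core in capitals.
Ino80: ATGGCgcctctcctcccccccGCCATGGC
A match is a description of letters and not a binding site.

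All 10 genes are annotated as protein coding. In GRCm38, Yy1 lies at chr12:108792973-108820148 and Ino80 at chr2:119373042-119477687. Ruvbl1 is at chr6:88465409-88497572, Ruvbl2 at chr7:45421760-45438096, Actr5 at chr2:158624888-158639211 and Actr8 at chr14:29978337-30006354. Mcrs1 is at chr15:99242817-99251961, Nfrkb at chr9:31386192-31421333, Uchl5 at chr1:143777272-143807466 and Ino80c at chr18:24104757-24121953. Ruvbl2, Actr5, Actr8, Mcrs1 and Uchl5 overlap another annotated gene, and because the use of strand in counting is not given, their reads may include reads of those genes. Ruvbl1 and Mcrs1 each have a near-identical processed pseudogene elsewhere, so their counts are uncertain too. The pseudogene of Ruvbl1, Gm5837, matches 81.7% of its longest transcript and held 239, 203, 141 and 147 reads in WT, XiΔXist, shSCR and shYY1, more than Ruvbl1 itself in each pool. That of Mcrs1, Gm13127, held 0 reads in every pool.

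The untreated pools held 24310035 (WT) and 28329701 (XiΔXist) allelic reads and the hairpin pools 2393545 (shSCR) and 2504345 (shYY1), and levels are given in CPM, the reads of a gene per 1000000 allelic reads of the pool. A count of 0 allows up to 3 counts, which is 0.106 to 0.123 CPM in the untreated pools and 1.20 to 1.253 CPM in the hairpin pools. Since only reads over strain differences are counted, CPM cannot be compared between genes. Of the 10 genes, 8 had at least 10 reads in both untreated pools, and all 10 did in both hairpin pools. Mitochondrial genes took 20.2% and 22.3% of reads in the untreated pools and 36.7% and 39.5% in shSCR and shYY1. The 10 fibroblast markers summed to 5302 and 3869 CPM in WT and XiΔXist and to 8201 and 9045 CPM in shSCR and shYY1, but Dcn had 0 and 1 reads and Lum 0 in the latter. Blood, endothelial, epithelial and pluripotency markers summed to at most 4.79 CPM in any pool. In bulk RNA, fewer cells of a type and less RNA per cell cannot be told apart.

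The first question was whether Yy1 fell in the pool with hairpins against it, and whether both of its alleles fell alike. Yy1 reads numbered 1538 (WT), 1697 (XiΔXist), 237 (shSCR) and 92 (shYY1), which is 63.3, 59.9, 99.0 and 36.7 CPM. The level was highest in shSCR and lowest in shYY1, and the counting intervals of the untreated pools overlapped each other but neither hairpin pool. Yy1 in shYY1 was left at 0.371 of its shSCR level (95% counting interval 0.288 to 0.474), a log2 change of -1.41 on the scale of CPM plus 1, and a two-sided Fisher's exact test on the reads gave an adjusted p of 5.8e-15. Here and throughout, that test sets 1 pool of libraries against another and says nothing of the spread within a condition. The shSCR level itself stood above that of the untreated cells, by a log2 difference of 0.72 from XiΔXist.

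The size of this fall was not singular. A change past 1.5-fold in either direction was seen in 13.5% of the 8245 genes with at least 50 reads in the hairpin pools together, a fall past 1.5-fold in 8.5%, and an adjusted Fisher p under 0.05 in 14.8%. Of the 8245 genes, 19 fell further than Yy1, and 30 had a smaller Fisher p. Those that fell furthest were Vapa, which tethers the endoplasmic reticulum to other membranes (83 to 25 reads, log2 change -1.70), Fuk, the fucose kinase (61 to 18 reads, -1.69), Ubl4a (57 to 17 reads, -1.67), Arhgap26 (44 to 13 reads, -1.65) and Podnl1 (40 to 12 reads, -1.61), each with an adjusted Fisher p of 0.0011 or less. All 5 had fewer reads in shSCR than Yy1. Among the 1494 genes with at least as many reads in shSCR as Yy1, no other gene fell as far.

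Both Yy1 alleles fell. In the same order of pools, the 129 allele gave 667, 799, 65 and 31 reads and the CAST allele 871, 898, 172 and 61. The 129 allele was left at 45.6% of its shSCR level (28.7% to 70.9%) and the CAST allele at 33.9% (24.9% to 45.6%), intervals that overlap widely. The 129 share of Yy1 reads was 27.4% in shSCR and 33.7% in shYY1, a difference of 6.27 percentage points with an interval of -4.41 to 17.7 (Fisher's exact test, p = 0.28, adjusted p = 1). A difference between the alleles was thus not detectable at this depth, and an allelic difference of up to 17.7 points lies within the interval. The 129 share test was passed by 1.19% of the 10070 genes with at least 10 reads in each hairpin pool.

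**Figure D1:**
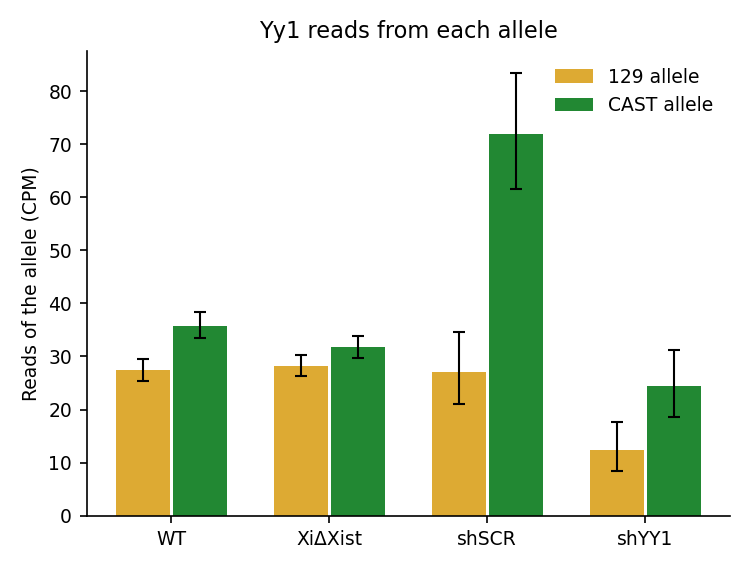
Yy1 reads from the 129 allele (yellow) and the CAST allele (green) in CPM, on the vertical axis, in the 4 pools, with exact Poisson 95% intervals as error bars. Both alleles were lower in shYY1 than in shSCR, and the CAST allele stood at 71.9 in shSCR against 35.8 and 31.7 in WT and XiΔXist.

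The lower 129 share of Yy1 in the hairpin pools was not particular to the gene. It was 43.4% in WT and 47.1% in XiΔXist, and the median share of genes within 5 Mb of Yy1 was 49.5%, 50.4%, 28.5% and 26.7% in WT, XiΔXist, shSCR and shYY1. In no pool did the interval of Yy1 lie outside the interquartile range of its neighbours' shares.

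The next question was whether the transcripts of the partners changed where Yy1 was low. Of the 9 partners, 5 had enough reads to be tested (at least 50 in the hairpin pools together), and 0 of these 5 passed 1.5-fold or the adjusted Fisher test, beside 13.5% and 14.8% of all genes. Summed over the 9 partners, 440 reads in shSCR and 495 in shYY1 gave a ratio of CPM of 1.08 (0.944 to 1.23). On these library totals the counting intervals of all 9 ratios held 1. Other scalings of the libraries raised the log2 ratios by 0.064 to 0.078, which lifts the interval of Ino80c (0.993 to 2.27) above 1. For 6 of the 9 (Ino80, Ruvbl1, Ruvbl2, Nfrkb, Uchl5 and Ino80c) the interval lay wholly above that of Yy1, so a fall as deep as that of Yy1 was outside it, while for Actr5, Actr8 and Mcrs1 the depth did not set such a limit.

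Ino80, the motor subunit, had 1672, 2639, 58 and 63 reads in WT, XiΔXist, shSCR and shYY1, which is 68.8, 93.2, 24.2 and 25.2 CPM. The hairpin pools lay below both untreated pools and did not differ from each other beyond counting error, with a ratio of 1.04 (0.715 to 1.51) and an adjusted Fisher p of 0.95.

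The ring ATPases had few reads in the untreated cells. Ruvbl1 had 31, 38, 13 and 20 reads in WT, XiΔXist, shSCR and shYY1, or 1.28, 1.34, 5.43 and 7.99 CPM, and its ratio of shYY1 to shSCR was 1.47 (0.696 to 3.22), under the read minimum for a test. Ruvbl2 had 7, 6, 56 and 71 reads, or 0.288, 0.212, 23.4 and 28.4 CPM, with a ratio of 1.21 (0.842 to 1.75) and an adjusted Fisher p of 0.52. Both genes were higher in the 2 hairpin pools than in the 2 untreated pools, and within each kind of pool the intervals overlapped.

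Of the actin-related subunits, Actr5 had 11, 16, 26 and 19 reads in WT, XiΔXist, shSCR and shYY1, or 0.452, 0.565, 10.9 and 7.59 CPM, and a ratio of shYY1 to shSCR of 0.698 (0.365 to 1.31). Actr8 had 85, 209, 20 and 19 reads, or 3.50, 7.38, 8.36 and 7.59 CPM, and a ratio of 0.908 (0.458 to 1.79). Actr8 was lowest in WT, and its intervals in the other 3 pools overlapped, whereas Actr5 was low in both untreated pools. Neither reached the read minimum in the hairpin pools.

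Among the animal-specific subunits, Mcrs1 had 0, 1, 25 and 13 reads, the last 2 being 10.4 and 5.19 CPM. Its ratio of 0.497 (0.233 to 1.01) was the lowest of the partners, on 38 reads in all and without a test. Nfrkb had 480, 392, 121 and 143 reads, or 19.7, 13.8, 50.6 and 57.1 CPM, with a ratio of 1.13 (0.880 to 1.45) and an adjusted Fisher p of 0.56. Uchl5 had 4099, 5119, 80 and 83 reads, or 169, 181, 33.4 and 33.1 CPM, with a ratio of 0.992 (0.721 to 1.37) and an adjusted Fisher p of 1. Nfrkb was thus higher and Uchl5 lower in both hairpin pools than in both untreated pools, and neither pair of hairpin values was apart.

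Ino80c had 3077, 4642, 41 and 64 reads in WT, XiΔXist, shSCR and shYY1, or 127, 164, 17.1 and 25.6 CPM. Its ratio of 1.49 (0.993 to 2.27) was the highest of the 5 partners tested and just inside the 1.5-fold limit, with an adjusted Fisher p of 0.18. With other scalings of the libraries it passed 1.5-fold (log2 change 0.62 to 0.63) and still missed the adjusted Fisher threshold (p of 0.12 to 0.14).

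**Figure D2:**
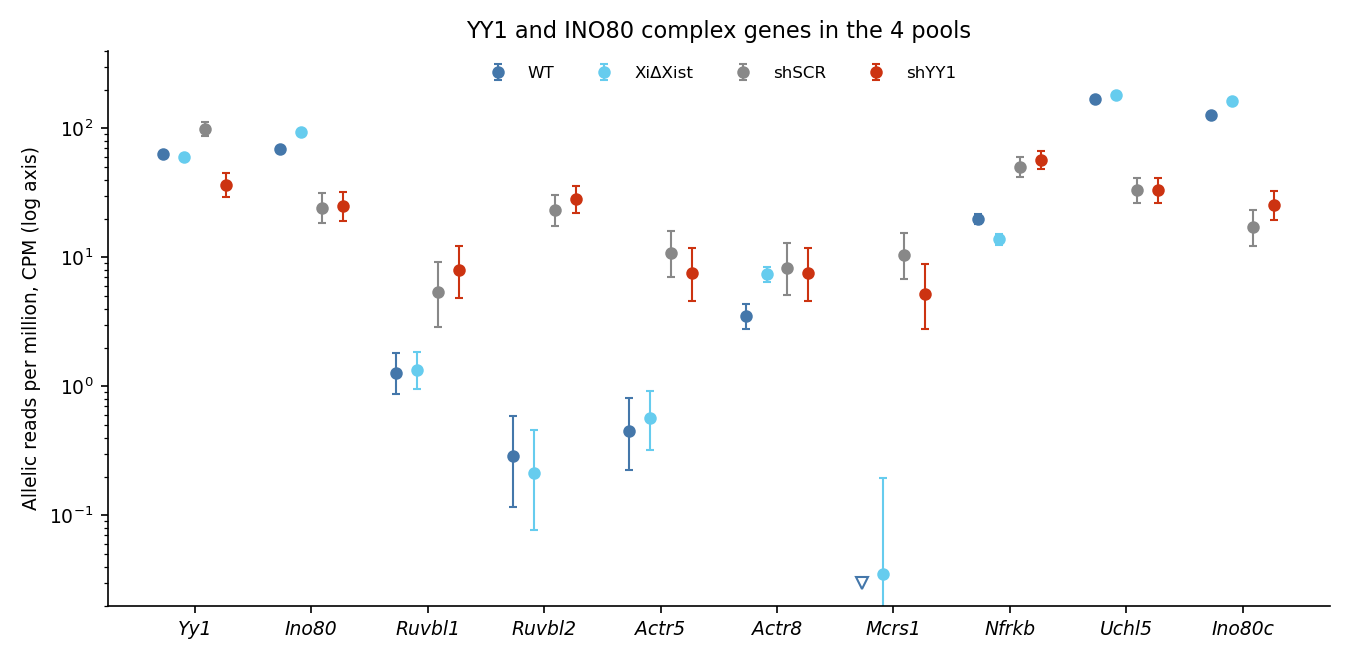
Levels in CPM on a log axis for the 10 genes in WT, XiΔXist, shSCR and shYY1, with exact Poisson 95% intervals; the open triangle marks 0 reads and has no height of its own. Yy1 is the gene whose shSCR and shYY1 intervals (around 99.0 and 36.7) stand apart.

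**Figure D3:**
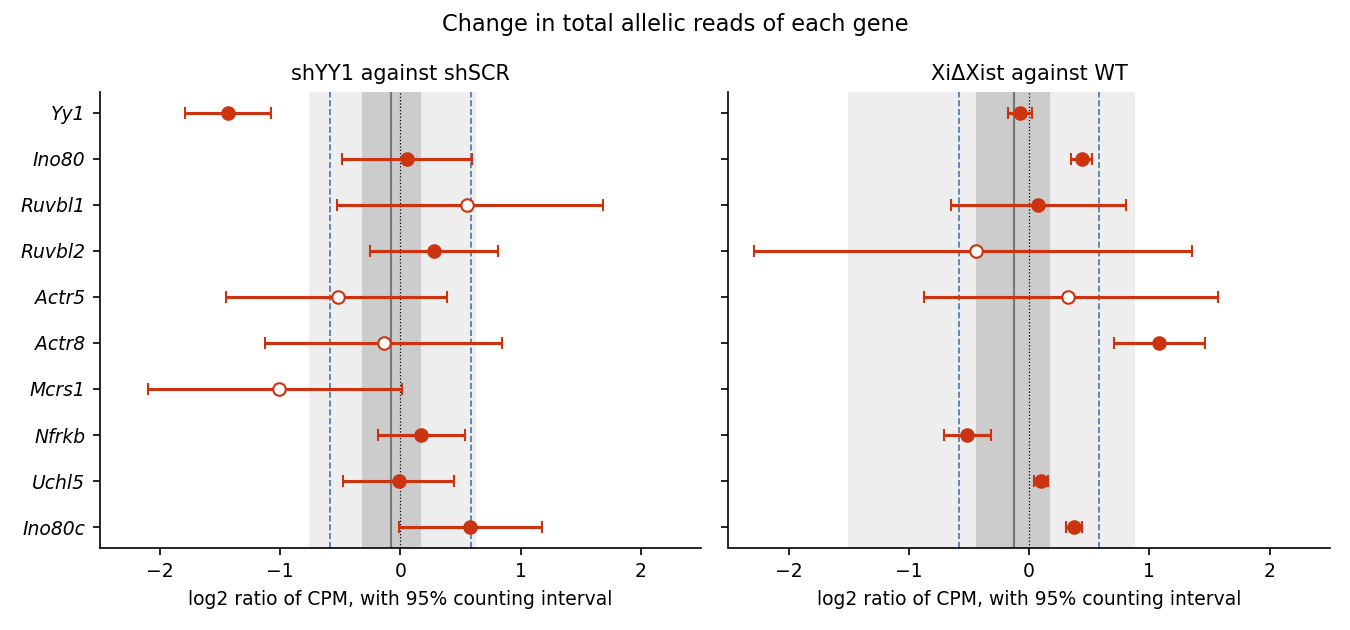
Log2 ratio of CPM of each gene with its 95% counting interval, shYY1 against shSCR on the left and XiΔXist against WT on the right, where filled points had at least 50 reads and open points had fewer. Grey bands give the middle 50% and 90% of all genes tested on the same scale, the solid line their median and the dashed lines 1.5-fold; Mcrs1 is left out on the right because it had 0 reads in WT. Among filled points, Yy1 on the left and Actr8 on the right lie outside both bands. On the left the open point of Mcrs1 (25 and 13 reads, ratio 0.497) lies past the 1.5-fold line too.

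Other genes of the pathway came from lists set by function. Of the 6 other INO80 subunits, 5 were tested, and their median log2 change of -0.13 stood beside -0.08 for all 8245 genes. Ino80b passed 1.5-fold upward (18 to 35 reads, log2 change 0.81) with an adjusted Fisher p of 0.15, and Ino80d rose by the Fisher test (179 to 245 reads, 0.38, adjusted p = 0.046) but stayed within 1.5-fold. Actl6a, an actin-related subunit shared with other complexes (111 to 97 reads, -0.25), Actb, the actin itself (239 to 214, -0.22), and Ino80e (43 to 41, -0.13) passed neither limit, and Tfpt (8 to 17) had too few reads. Actb has near-identical copies, so its counts are uncertain.

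TIP60 and SRCAP are related complexes that also hold RUVBL1 and RUVBL2, and 14 of their 18 listed subunits were tested. Znhit1, a SRCAP subunit, rose (11 to 45 reads, 4.60 to 17.97 CPM, log2 change 1.76, adjusted Fisher p = 0.00037), and 0 fell by either rule. The R2TP assembly and the TTT proteins, which use RUVBL1 and RUVBL2 to build other machines, had 5 of 7 genes tested and a median of -0.52. Telo2 (85 to 55 reads, -0.67, adjusted Fisher p = 0.040) and Tti1 (102 to 69 reads, -0.61, adjusted Fisher p = 0.042), both TTT proteins, fell by both rules, while Rpap3 (18 to 33 reads, 0.73) passed only 1.5-fold upward and has a near-identical copy.

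Of 17 relatives and protein partners of YY1, 16 were matched and 12 tested, with a median of -0.17. Hdac1, a histone deacetylase, fell by both rules (81 to 49 reads, -0.76, adjusted Fisher p = 0.025), though it has near-identical copies. Bap1, a deubiquitinase, passed 1.5-fold downward (65 to 44 reads, -0.60, adjusted Fisher p = 0.12). Ep300, a histone acetyltransferase, rose by the Fisher test alone (293 to 407 reads, 0.41, adjusted p = 0.0037). Yy2, the closest relative of Yy1, and Zfp42 had 0 reads in both hairpin pools. Of 10 ATPases of other remodelling complexes, 9 were tested and 0 passed either rule, with log2 changes between -0.15 (Smarca5) and 0.15 (Chd1). Smarca5 has near-identical copies, so its counts are uncertain. Among all genes, 13.5% passed 1.5-fold and 14.8% the adjusted Fisher test. Of the 5 R2TP and TTT genes tested, 1 rose and 2 fell past 1.5-fold, and 2 fell by the Fisher test. The lists are short and none was tested as a set, so nothing particular to a list is read from these counts.

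The genes whose levels over the 4 pools were most like those of Yy1, by the distance between centred log2 values of CPM plus 1 over 4 pools and among 8244 genes, were 4930581F22Rik (distance 0.28), Mrpl35, a mitochondrial ribosomal protein (0.33), and 5031425E22Rik (0.33). Mrpl35 had 13.3, 12.3, 16.7 and 5.59 CPM in WT, XiΔXist, shSCR and shYY1, on 14 to 348 reads.

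Turning to the alleles of the partners, 0 of the 10 genes passed the 129 share test between shSCR and shYY1, beside 1.19% of all genes. Nfrkb, Uchl5 and Mcrs1 had no CAST reads in either hairpin pool and Actr8 no 129 reads, so the test could not pass for them. Among autosomal genes with at least 10 reads, 36.3% in shSCR and 36.6% in shYY1 had 129 reads alone, and such genes enter the 1.19% too. The largest difference was in Ruvbl1, which had 0 of 13 reads from 129 in shSCR (a share of up to 22.8% by the Wilson interval) and 8 of 20 in shYY1, a difference of 40 percentage points (10.9 to 61.3; Fisher's exact test, p = 0.012, adjusted p = 0.24). With CAST reads scaled to the same median autosomal 129 share in each pool, the difference was 18.6 points. The factors for CAST reads were 2.86 in shSCR and 2.92 in shYY1, from medians that included genes with 129 reads alone. Gm5837, the pseudogene of Ruvbl1, had 117 of 141 reads from 129 in shSCR and 112 of 147 in shYY1. Its reads may bear on the share of Ruvbl1, and their part in it was not tested. Ruvbl1 was low in 129 reads in the untreated cells as well, with 4 of 31 in WT and 3 of 38 in XiΔXist, while the genes within 5 Mb had median shares of 54.2% and 51.0%. In WT, XiΔXist and shSCR, but not in shYY1, its interval lay below the interquartile range of those neighbours.

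Uchl5, Nfrkb and Mcrs1 were read from the 129 allele almost alone. Nfrkb had 0 CAST reads of 480, 392, 121 and 143, and Uchl5 had 4 CAST reads of 4099 in WT, 3 of 5119 in XiΔXist and 0 of 80 and 83 in shSCR and shYY1. All 25 and 13 reads of Mcrs1 in shSCR and shYY1 were from 129. Their neighbours within 5 Mb had median 129 shares of 99.7% or more in every pool, so the genes did not stand apart from their regions. Whether these regions hold 2 different alleles cannot be told from these counts.

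Actr8 had 50 of 85 and 107 of 209 reads from 129 in WT and XiΔXist, or 58.8% and 51.2%, but 0 of 20 and 0 of 19 in shSCR and shYY1, with Wilson limits of 16.1% and 16.8%. The median share over chromosome 14 was 62.7%, 51.8%, 0% and 0% in the same pools, so the CAST reads of Actr8 in the hairpin pools went with the whole chromosome. Ino80 moved the other way, from 41.3% and 45.9% in WT and XiΔXist to 89.7% and 88.9% in shSCR and shYY1. Its neighbours had medians of 71.8%, 82.6%, 89.3% and 83.1%, and the interval of Ino80 lay below their interquartile range in the untreated pools and not outside it in the hairpin pools.

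For Ruvbl2 the share was 71.4% in shSCR and 60.6% in shYY1, a difference of -10.9 points (-26.3 to 5.80). Actr5 had 61.5% and 47.4%, a difference of -14.2 points (-39.8 to 14.1), and Ino80c had 41.5% and 35.9%, a difference of -5.53 points (-24.1 to 12.9). Each of these intervals holds 0 and is wide, so smaller differences in either direction could not be seen at this depth.

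**Figure D4:**
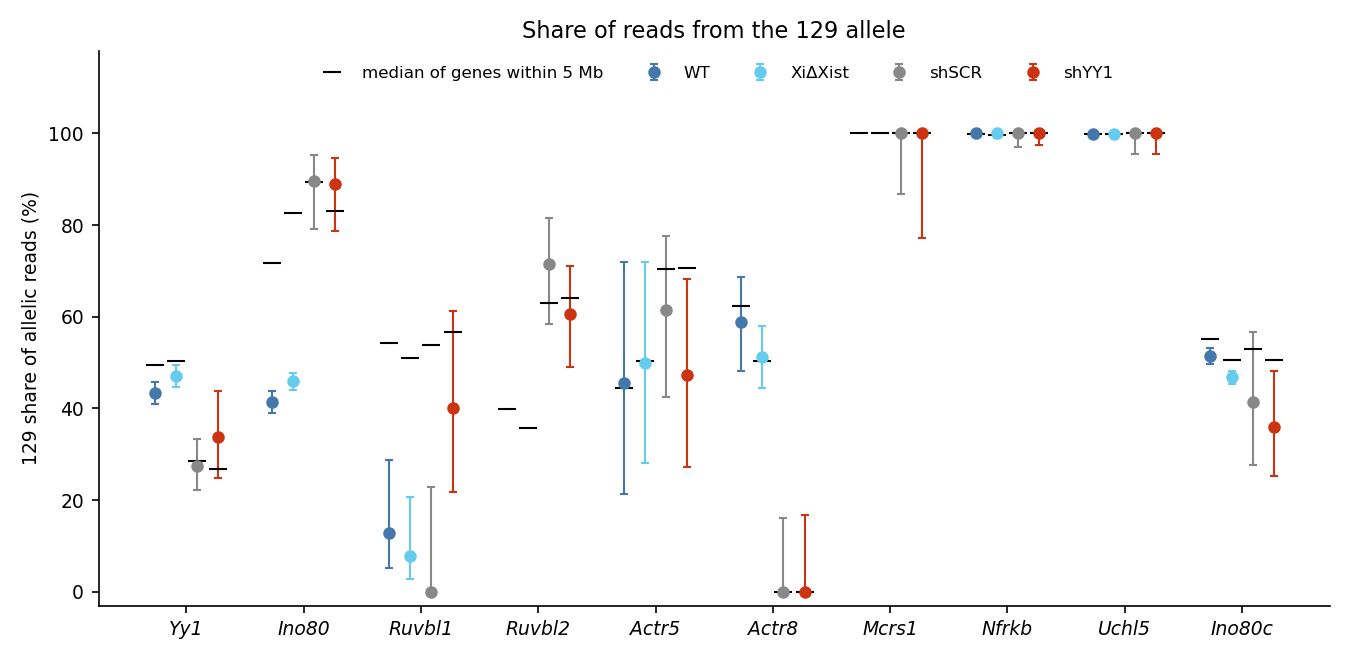
Share of reads from the 129 allele, in percent, for each gene with at least 10 reads in a pool, with Wilson 95% intervals; black dashes mark the median share of genes within 5 Mb in that pool. Uchl5, Nfrkb and Mcrs1 lie at or near 100% with their neighbours, Actr8 at 0% with its neighbours in both hairpin pools, and Ruvbl1 below its neighbours in WT, XiΔXist and shSCR.

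The untreated pools were compared to ask whether the same genes differ with the deletion of Xist, which here cannot be told apart from the difference between 2 clonal lines. The depth was greater, so small changes passed the Fisher test. An adjusted p under 0.05 was reached by 59.2% of the 10763 genes tested, and 19.9% passed 1.5-fold. Of 7 genes of the group with enough reads, 1 passed 1.5-fold, Actr8, with a ratio of 2.11 (1.63 to 2.75; log2 change 0.90, adjusted Fisher p = 6.4e-09). Both alleles of Actr8 were higher in XiΔXist, at 184% (130% to 262%) of WT for 129 and 250% (169% to 378%) for CAST. Chromosome 14 as a whole had a median log2 change of 0.36, and the genes within 5 Mb of Actr8 one of 0.43.

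Within 1.5-fold, Ino80 (ratio 1.35, 1.27 to 1.44), Ino80c (1.29, 1.24 to 1.36) and Uchl5 (1.07, 1.03 to 1.12) were higher in XiΔXist and Nfrkb (0.701, 0.612 to 0.802) was lower, each with an adjusted Fisher p of 0.0021 or less. The genes within 5 Mb of Nfrkb had a median log2 change of -0.35, against -0.48 for Nfrkb itself. For Ino80, Ino80c and Uchl5 the neighbour medians were 0.15, -0.16 and -0.12, against 0.43, 0.37 and 0.10 for the genes themselves. Yy1 in XiΔXist had a ratio of 0.947 (0.883 to 1.02, adjusted Fisher p = 0.17) and Ruvbl1 one of 1.05 (0.637 to 1.75), while Ruvbl2, Actr5 and Mcrs1 had too few reads. TMM and size factors changed the ratio of the library totals in this comparison by 0.11 and 0.12 on the log2 scale, and with them Yy1 changed sign (to 0.035 and 0.045) while the other genes of the group that were tested kept theirs.

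The 129 share test between these pools was passed by 19.4% of 11909 genes and by 2 of the 8 genes of the group with enough reads. Ino80 rose from 41.3% to 45.9%, by 4.56 points (1.52 to 7.58; adjusted Fisher p = 0.020). Ino80c fell from 51.4% to 46.8%, by -4.58 points (-6.85 to -2.30; adjusted Fisher p = 0.00071), where the median change over chromosome 18 was -2.00 points. With CAST reads scaled so that the median autosomal 129 share was equal in both pools, the change of Ino80c was -0.36 points and that of Ino80 6.33 points. That scaling multiplied CAST reads by 2.71 in WT and 2.30 in XiΔXist, from medians that included genes with 129 reads alone. Without scaling, the median 129 share over chromosome 18 was 55.5% in WT and 53.6% in XiΔXist. Yy1 differed by 3.72 points (0.280 to 7.14; Fisher's exact test, p = 0.037, adjusted p = 0.15), and the median over chromosome 12 was 2.74 points.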

How the data were processed

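Total RNA of 8 MEF samples was sequenced, and the deposited counts are raw reads per Ensembl gene, not normalized. According to the methods and the submitters' processing notes, the authors pooled the 2 samples of each group, aligned the reads with TopHat to an N-masked mm10 genome, assigned them to an allele with SNPsplit and summed exonic reads per gene with featureCounts 1.6.3. The annotation release and use of strand are not given in the sources used here. Only reads over strain differences enter, and reads that also match a near-identical copy may be lost or misassigned.

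Symbols and positions came from GENCODE M21 (45229 of 46078 IDs matched). CPM used the total of both alleles. Without replicates no model was fitted. Changes are log2 ratios of CPM plus 1, and ratios carry exact conditional intervals. Two-sided Fisher's exact tests with Benjamini-Hochberg adjustment ran over all genes with at least 50 reads in 2 pools together (total level), or 10 in each (129 share, with Wilson and Newcombe intervals). Intervals cover counting error only, since PCR copies are not independent molecules and pooled columns hide replicate spread. On simulated reads for shYY1 against shSCR, the test recovered 35.8% of 1.5-fold, 74.6% of 2-fold and 93.9% of 3-fold changes among 8245 genes. A 20-point change of share was recovered in 32.8% and a 40-point change in 75.8% among 10070 genes. Simulated reads held counting noise only, and these share changes were rises in 67 and 66 genes of middling 129 share. The share rates therefore do not apply to genes read from a single allele, such as Nfrkb, Uchl5, Mcrs1 and Actr8 in the hairpin pools.

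The members and lists were chosen with earlier results of these data known. Named genes are the members, the other INO80 subunits, genes of the other lists called by fold and by Fisher's test, the 3 genes nearest to Yy1 in profile, and the 5 with the deepest falls among those that fell at least as far as Yy1. Bap1, Ep300, Rpap3, Yy2, Zfp42, Smarca5 and Chd1 were named after their values were seen. Near-identical copies were found with blastn 2.17.0 (90% identity over at least 50% of the longest transcript). Alternatives were other scalings (edgeR 4.0.16 TMM, DESeq2 1.42.0 size factors, no mitochondrial genes), pseudocounts, read minimums, folds, single alleles, genes without overlap and a scaling of CAST reads. Computation used Python 3.11.15, numpy 2.4.6, pandas 2.3.3, scipy 1.17.1, matplotlib 3.10.9 and R 4.3.3.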

Additional observations from a re-analysis of the deposited data

How the results depend on the processing

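The fall of Yy1 in shYY1 passed 1.5-fold and the adjusted Fisher test under all 9 alternatives (log2 change -1.52 to -1.07), and its change of 129 share stayed within its interval (3.16 to 6.27 points). The count of genes past 1.5-fold in shYY1 against shSCR was 1 of 6. It became 2 of 6 without mitochondrial genes, with TMM factors, with size factors and with the lower fold limit, where Ino80c joined. With CAST reads alone it was 2 of 2, as only Yy1 and Ino80c reached the read minimum. With a minimum of 10 reads it was 2 of 10, where Mcrs1 joined. In XiΔXist against WT the count of 1 became 4 with the lower fold limit. With a fold of 2 it became 0, since calls use CPM plus 1, on which the log2 change of Actr8 was 0.90. The ratio of CPM alone was 2.11 for Actr8. The count was also 0 among genes that overlap no other, since Actr8 overlaps one. Yy1 there changed sign with TMM factors (0.035), size factors (0.045) and 129 reads alone (0.038), and passed the adjusted Fisher test with CAST reads alone (-0.17). Uchl5 in shYY1 changed sign without mitochondrial genes (0.051), with TMM factors (0.062) and with size factors (0.064). No paired analysis was possible because the deposited columns pool the replicates of each group, and for the same reason no replicate could be left out. With CAST reads scaled, the change of 129 share of Ino80c in XiΔXist against WT went from -4.58 to -0.36 points and that of Ruvbl1 in shYY1 against shSCR from 40 to 18.6 points. The scaling factors came from medians that include genes with 129 reads alone, so they do not measure allele bias by itself. The cause of these shifts was not tested. Depth is a limit in the hairpin pools, where 7 of the 9 partners had 13 to 71 reads in either pool.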

Other observations

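The step between untreated XiΔXist cells and XiΔXist cells with the scrambled hairpin was larger for most of the 10 genes than any difference between the hairpin pools. Relative to untreated XiΔXist cells, shSCR was higher by a log2 difference of 4.33 for Ruvbl2, 3.47 for Mcrs1, 2.92 for Actr5, 1.80 for Nfrkb, 1.46 for Ruvbl1, 0.72 for Yy1 and 0.16 for Actr8. It was lower by a log2 difference of -3.18 for Ino80c, -2.40 for Uchl5 and -1.90 for Ino80. These log2 differences are on the scale of CPM plus 1. Ruvbl2, Mcrs1 and Actr5 had 6, 1 and 16 reads in untreated XiΔXist cells, or 0.212, 0.035 and 0.565 CPM. At such levels the scale makes a difference smaller than that of CPM alone, and the few reads leave its size uncertain. A difference of 2-fold or more was seen in 8 of the 10 genes and in 64.6% of the 10444 genes compared, and one of 4-fold or more in 5 of the 10 and in 36.3% of all. The hairpin libraries also differ from the untreated ones in read length, depth, mitochondrial share and the allelic balance of whole chromosomes. The median 129 share over chromosome 14 was 51.8% in XiΔXist and 0% in shSCR, and over chromosome 12 it was 50.4% and 27.1%. The part of each difference in these values was not tested. Sfmbt2, a Polycomb-related protein that binds YY1, chosen here after its values were seen, had 24 reads in shSCR and 8 in shYY1, a ratio of 0.319, under the read minimum for a test.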
